A study of Mus musculus with 2 samples.

Results

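The genes described here are 37 genes of glucose uptake, glycolysis, lactate handling, pyruvate entry and the pentose phosphate pathway, out of 43346 gene rows, measured in mouse megakaryocytes, the large bone marrow and fetal liver cells that release platelets. They were taken as a named list, matched by symbol through the Ensembl identifier, and all 37 were found in both libraries. The study holds 2 libraries of polyadenylated RNA in 1 group: primary megakaryocytes of embryos of day 14.5, both sexes pooled, sequenced in paired end mode, with no genotype, strain or treatment named in the labels. The labels number the libraries as biological replicates 1 and 2 but cite a common biosample and donor, and nothing says that they came from separate cultures, so differences between them may be technical. No condition was compared and no test was made: with 1 group of 2 libraries, every value below is a description of these libraries.

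Glycolysis splits glucose into pyruvate in the cytosol and yields ATP and NADH, and lactate dehydrogenase turns pyruvate into lactate, which returns NADH to NAD. The pentose phosphate pathway branches off at glucose 6-phosphate and makes NADPH and ribose phosphate. Many steps can be run by several isozymes, each from its own gene and typical of certain tissues, and platelets, the product of megakaryocytes, are known to use glycolysis heavily.

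The libraries differed in depth. Replicate 1 held 42099216 expected counts and replicate 2 held 2275922, an 18.5-fold gap, so 3 counts, the limit that a count of 0 allows, stood for 0.0713 CPM (a count relative to the depth of its library) in replicate 1 and for 1.32 CPM in replicate 2. Megakaryocyte markers were abundant in both libraries: all 8 reached a mean of 1 TPM (a level per transcript length, scaled to a fixed total), and they summed to 15036 TPM in replicate 1 and 22111 in replicate 2. Macrophage markers summed to 874 and 229 TPM in replicates 1 and 2, granulocyte markers to 781 and 150 TPM, erythroid markers to 156 and 186 TPM, and hepatocyte markers to 56.4 and 9.72 TPM, with the hepatocyte genes Alb and Ttr at 0 in both. In such bulk RNA, fewer cells of a type and less RNA per cell cannot be told apart.

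The 37 genes took 3.80% of all TPM in replicate 1 and 2.20% in replicate 2. A mean of at least 1 TPM was reached by 35 of them, against a background of 22.7% of all gene rows and 42.5% of protein coding genes. The 2 genes under that level were Pklr and Ldhb. Per library, 35 genes reached 1 TPM in replicate 1 and 32 in replicate 2, and 4 genes (Hk3, Pdhb, Pklr and Ldhb) had 0 counts in replicate 2. A level of 1000 TPM was reached by 8 genes in replicate 1 and 5 in replicate 2, and 7 and 4 of the genes ranked among the 100 highest of their library. By the mean of both libraries the highest were Gapdh, Aldoa, Pkm, Eno1 and Ldha, of which Aldoa acts where the sugar is split and the others act after that split.

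**Figure D1:**
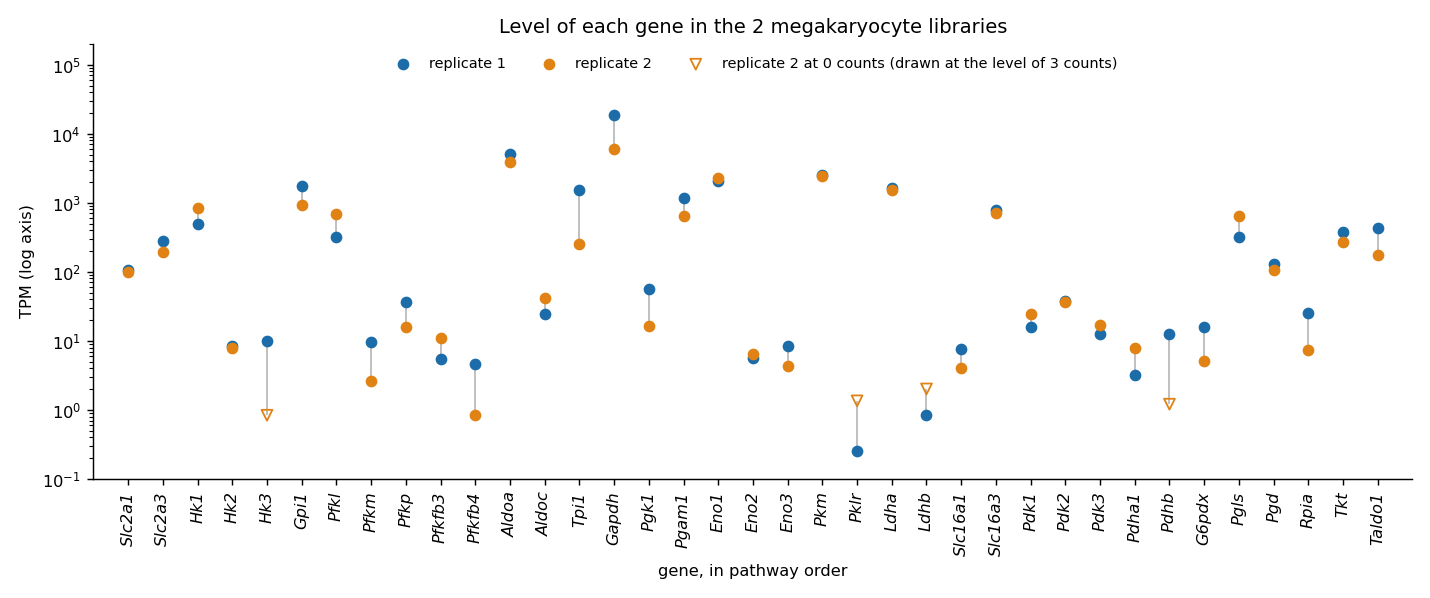
TPM of each of the 37 genes on a log axis, in pathway order, in replicate 1 (blue) and replicate 2 (orange), with open triangles at the level of 3 counts where replicate 2 had 0 counts. Aldoa, Pkm, Eno1 and Ldha lie above 1000 TPM in both libraries with points close together, while Tpi1, Hk3 and Pdhb show wide gaps.

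Glucose enters through facilitative transporters. Slc2a3, which codes for GLUT3, a transporter known from neurons and platelets, had 280 TPM in replicate 1 and 194 in replicate 2. Slc2a1, which codes for the widespread transporter GLUT1, had 105 TPM in replicate 1 and 98.9 in replicate 2. The order of the pair was the same in both libraries, with Slc2a3 2.66-fold higher than Slc2a1 in replicate 1 (95% counting interval 2.60 to 2.72) and 1.96-fold higher in replicate 2 (1.77 to 2.17). At the length of the longest coding transcript, Slc2a3 would have 273 TPM in replicate 1 and 308 in replicate 2. Slc2a1 would have 105 and 98.9 TPM. The lower deposited level of Slc2a3 in replicate 2 thus rests on a longer model. The scaled count ratio of Slc2a3, replicate 1 over replicate 2, was 0.749 (0.718 to 0.783). The exact intervals given here and below cover counting error only. Slc2a6, an intracellular member of the family that was not among the 37, had 6.89 and 15.5 TPM in replicates 1 and 2, and Slc2a2 and Slc2a4, the liver and the muscle and fat transporters, had 0 counts in both.

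Hexokinase traps glucose in the cell as glucose 6-phosphate. Hk1, the form of most tissues, took nearly the whole step, with 491 TPM in replicate 1 and 850 in replicate 2, or 96.4% and 99.1% of the hexokinase TPM. Hk2, the insulin-responsive form of muscle and fat, had 8.43 and 7.85 TPM in replicates 1 and 2. Hk3, a form known from myeloid blood cells, had 1098 counts and 9.96 TPM in replicate 1 and 0 counts in replicate 2, where 3 counts would be 0.835 TPM. After scaling, Hk3 was at least 14.6-fold higher in replicate 1, with 3 counts taken for replicate 2. All 7 macrophage markers were also at least 2-fold higher in replicate 1, beside 33.8% of all genes tested. So were the 4 granulocyte markers with a mean of at least 100 counts. Some of these genes passed that minimum through replicate 1 alone, as Marco did with 2282 counts and 1, so the tally is no support for a direction. The other granulocyte markers fell below the minimum and had 0 counts in replicate 2. The part of macrophages and granulocytes in the Hk3 value was not tested. The leading Hk1 transcript was Hk1-201, with 94.2% of the gene in replicate 1 and 98.2% in replicate 2, and Hk1-202 held 5.11% and 1.83%.

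Gpi1 codes for the isomerase that makes fructose 6-phosphate and had 1755 TPM in replicate 1 and 932 in replicate 2. Phosphofructokinase then commits the sugar to glycolysis. Its liver-type subunit Pfkl led in both libraries, with 320 TPM in replicate 1 and 694 in replicate 2, or 87.5% and 97.4% of the step. The platelet-type subunit Pfkp, named for the tissue in which it was described, had only 36.2 and 15.7 TPM in replicates 1 and 2, and the muscle-type Pfkm had 9.74 and 2.62 TPM. Pfkl exceeded Pfkp 8.85-fold in replicate 1 (8.41 to 9.33) and 44.1-fold in replicate 2 (29.6 to 69.0). This order did not depend on length, since Pfkl also held 94.7% and 99.2% of the step's counts. The size of the folds did depend on it. At the length of the longest coding transcript, Pfkp would have 9.48 TPM in replicate 1 and 3.23 in replicate 2. Pfkl would have 320 and 693 TPM. Of the Pfkp TPM, 58.9% in replicate 1 and 98.8% in replicate 2 went to Pfkp-206, a transcript with a retained intron. Pfkp also overlaps the antisense gene Pitrm1, and reads within the overlap cannot be told apart unless strand was used in counting. The extent of the overlap is not given here. Pfkm-202 led Pfkm with 63.3% in replicate 1 and 100% in replicate 2, on 13 counts in all, and Pfkm-201 held the remaining 36.7% in replicate 1.

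Pfkfb3 and Pfkfb4 code for enzymes that set the level of fructose 2,6-bisphosphate, an activator of phosphofructokinase. Both were low. Pfkfb3 had 5.53 TPM in replicate 1 and 10.8 in replicate 2, and Pfkfb4 had 4.57 and 0.84 TPM. Pfkfb3 was ahead by 1.21-fold in replicate 1 (1.09 to 1.35) and by 12.9-fold in replicate 2 (4.99 to 42.0), where Pfkfb4 had 5 counts. Of the Pfkfb3 TPM in replicate 2, 82.6% was placed on noncoding transcripts. At the length of the longest coding transcript, Pfkfb3 would have 4.67 TPM in replicate 1 and 3.93 in replicate 2, against 4.57 and 0.84 for Pfkfb4, so the 12.9-fold lead rests in part on short models, and the scaled count ratio of Pfkfb3 between the libraries was 1.00 (0.712 to 1.46). Pfkfb2, the heart form and no member of the list, had 2.46 and 1.80 TPM in replicates 1 and 2.

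Aldolase cuts the 6-carbon sugar. Aldoa, the muscle and blood cell form, had 5094 TPM in replicate 1 and 3910 in replicate 2 (4502 ± 837 TPM, SD, n = 2), ranking 26 and 32 among all genes. Aldoc, the brain form, had 24.4 and 42.2 TPM in replicates 1 and 2. Aldoa-201 led with 92.6% in replicate 1 and 82.9% in replicate 2, and Aldoa-202 held 2.05% and 11.4%.

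Tpi1 codes for triosephosphate isomerase, which interconverts the products of aldolase. It had 1557 TPM in replicate 1 and 249 in replicate 2, and its scaled ratio, replicate 1 over replicate 2, was 5.45 (4.74 to 6.29), the largest among the 33 genes with counts in both libraries. Gapdh codes for the NADH-yielding dehydrogenase of the pathway and is a common reference gene. It was the highest of the 37 genes, with 18637 TPM in replicate 1 and 6115 in replicate 2, ranks 4 and 24 of all genes. The scaled ratio was 2.72 (2.65 to 2.80). Neither gene's level was close between the libraries.

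The TPM of Gapdh and Tpi1 rests on short transcripts. The authors' quantifier placed 93.5% of the Gapdh TPM in replicate 1 and 93.0% in replicate 2 on Gapdh-206, a transcript of 565 bases with a retained intron, on chromosome 6. Of those 565 bases, 481 lie in exons of coding Gapdh transcripts and 84 in an intron, so most reads that match it match the coding forms too. The stretch that sets it apart is given on GRCm38, minus strand, chr6:125162344-125162527, read from the GENCODE M21 transcript with the 84 intron bases in capitals and 50 exon bases in lower case on each side. It opens with GT and ends with AG, the usual ends of an intron, and the joined exon bases without it are found in 4 of 6 coding Gapdh transcripts.
Gapdh-206: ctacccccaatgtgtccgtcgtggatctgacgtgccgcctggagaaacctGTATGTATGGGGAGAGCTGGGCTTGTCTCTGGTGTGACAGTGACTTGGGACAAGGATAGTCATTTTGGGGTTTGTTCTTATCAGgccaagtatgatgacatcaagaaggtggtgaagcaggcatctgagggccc

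A short transcript raises TPM for the same counts. Taken at the length of the longest coding transcript, a setting chosen after the data were seen, Gapdh would have 6905 TPM in replicate 1 and 2158 in replicate 2, and would still be the highest in replicate 1, while Aldoa would have 4842 and 3706 TPM. Tpi1 would have 473 and 73.8 TPM. Its leading transcript Tpi1-204, with 74.9% of the gene in replicate 1 and 87.8% in replicate 2, was 446 bases long in the deposited tables. In GENCODE M21 the transcript of the same identifier has 1552 bases, of which 84 lie outside coding exons, so its type is that of the later annotation.

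Gapdh also shares reads with other loci. By sequence, 83 annotated loci were at least 95% identical to Gapdh over at least 200 bases, and they held 38.0% of the joint counts in each library. The processed pseudogene Gm13394, 99.9% identical over 1000 bases, held 212554 counts in replicate 1 and another 3096 in replicate 2, so the Gapdh level is uncertain. With these loci added, the ratio between the libraries was 2.72 as well.

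Pgk1 codes for phosphoglycerate kinase, the first ATP-yielding enzyme of the pathway. Its level stood far below those of its neighbours, with 55.5 TPM in replicate 1 and 16.7 in replicate 2, on 3636 and 50 counts. Pgk2, the testis form, had 0 counts in both libraries, so no other listed gene covered the step. The processed pseudogene Pgk1-rs7, identical over 1255 bases, took 633 counts in replicate 1 but 0 in replicate 2, which did not close the gap. The coding Pgk1-201 led with 67.2% in replicate 1, while all 50 counts of replicate 2 were placed on Pgk1-203, annotated as a target of nonsense-mediated decay.

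Pgam1, the phosphoglycerate mutase of most tissues, had 1179 TPM in replicate 1 and 651 in replicate 2, and the muscle form Pgam2 had 0 counts in both. Enolase follows. Eno1, the widespread form, had 2100 TPM in replicate 1 and 2278 in replicate 2 (2189 ± 126 TPM, SD, n = 2) and took 99.3% and 99.5% of the enolase TPM. The neuronal form Eno2 had 5.64 and 6.40 TPM, and the muscle form Eno3 had 8.34 and 4.33 TPM, in replicate 2 on 7 and 5 counts. Eno1 shares sequence with Eno1b, to which 49789 counts went in replicate 1 and 1820 in replicate 2, and with the pseudogene Gm4735, which held 5967 and 4695. Together these held 29.4% of the joint counts in replicate 1 and 45.8% in replicate 2, and adding them moved the Eno1 ratio, replicate 1 over replicate 2, to 0.532 against 0.693 for Eno1 alone.

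Pyruvate kinase makes ATP and pyruvate. Pkm had 2520 TPM in replicate 1 and 2439 in replicate 2 (2480 ± 57.1 TPM, SD, n = 2), ranks 62 and 64, and the liver and red cell gene Pklr had 27 counts and 0.25 TPM in replicate 1 and 0 counts in replicate 2. A difference in Pklr between the libraries was not detectable at this depth. Pkm makes M1 and M2 enzymes by choosing between mutually exclusive exons, and the M2 enzyme, known from embryonic and dividing cells, is open to control by small molecules. Pkm-201, which carries the downstream M2 exon, held 98.9% of the Pkm TPM in replicate 1 and 99.2% in replicate 2, or 2492 and 2419 TPM, against 28.0 and 20.7 TPM for Pkm-202, which carries the M1 exon. Both had a deposited length of 2432 bases. In GENCODE M21 the transcript of the identifier of Pkm-202 has 2041 bases, so the M1 share rests on a model that differs from the later annotation.

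The exons are shown because the choice between them sets which enzyme is made and was the same in both libraries. They lie on chromosome 9, plus strand, GRCm38, the M2 exon at chr9:59675568-59675734 and the M1 exon at chr9:59675029-59675195, and are read from GENCODE M21 transcripts. Each is 167 bases long. Capitals mark the 64 positions at which they differ, and the other 103 are the same, an identity of 61.7%.
Pkm-201: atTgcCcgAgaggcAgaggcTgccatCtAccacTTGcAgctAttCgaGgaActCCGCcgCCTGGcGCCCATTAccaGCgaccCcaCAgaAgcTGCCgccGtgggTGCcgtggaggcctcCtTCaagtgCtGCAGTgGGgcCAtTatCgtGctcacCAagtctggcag
Pkm-202: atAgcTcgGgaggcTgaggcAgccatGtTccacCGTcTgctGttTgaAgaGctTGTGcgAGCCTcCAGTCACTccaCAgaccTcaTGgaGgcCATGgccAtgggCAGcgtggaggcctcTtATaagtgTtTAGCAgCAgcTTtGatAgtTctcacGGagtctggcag

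Lactate dehydrogenase is built from A and B subunits, of which the A form is typical of muscle and the B form of heart. Ldha had 1614 TPM in replicate 1 and 1533 in replicate 2 (1574 ± 56.9 TPM, SD, n = 2). Ldhb had 39 counts and 0.85 TPM in replicate 1 and 0 counts in replicate 2, where 3 counts would be 2.01 TPM, so a difference in Ldhb between the libraries was not detectable. Ldha exceeded Ldhb 1899-fold in replicate 1 (1388 to 2668) and at least 764-fold in replicate 2, with 3 counts taken for Ldhb. The testis form Ldhc had 9 counts in replicate 1 and was at 0 in replicate 2.

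The Ldha transcripts did not match between the libraries. In replicate 1, Ldha-208 held 70.0%, Ldha-203 19.5%, Ldha-202 10.3% and Ldha-206 0.155% of the TPM. In replicate 2, Ldha-206, a coding model of 645 bases, held 83.1%, Ldha-208 9.93%, Ldha-202 6.93% and Ldha-203 0.00783%. At the length of the longest coding transcript, Ldha would have 843 TPM in replicate 1 and 558 in replicate 2.

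Lactate leaves through monocarboxylate transporters. Slc16a3, which codes for MCT4, the export form of glycolytic cells, had 787 TPM in replicate 1 and 702 in replicate 2 (745 ± 60.5 TPM, SD, n = 2). Slc16a1, which codes for the widespread MCT1, had 7.70 and 4.03 TPM, so Slc16a3 was ahead 102-fold in replicate 1 (96.8 to 108) and 174-fold in replicate 2 (123 to 255). Bsg, which codes for basigin, the partner that brings these transporters to the membrane, had 3166 and 2209 TPM in replicates 1 and 2. Slc16a3-201 held 94.9% of the gene in replicate 1 and 36.5% in replicate 2, and Slc16a3-202 held 4.23% and 63.4%. At the length of the longest coding transcript Slc16a3 would have 401 and 368 TPM, still far above Slc16a1.

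**Figure D2:**
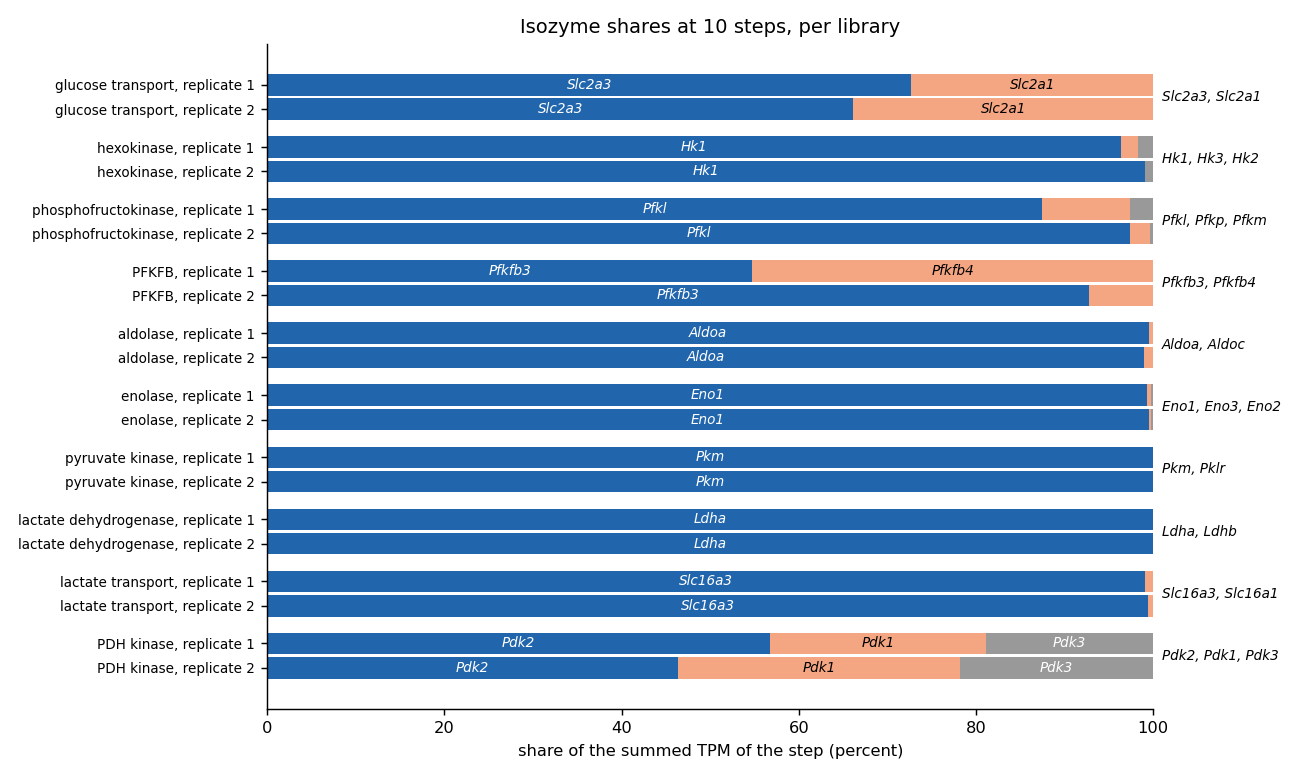
Share of the summed TPM of each of 10 steps taken by its listed isozymes, in percent, with a bar for replicate 1 above a bar for replicate 2, and genes coloured by their order in replicate 1 (blue, salmon, grey; order given at the right). The same gene leads all 10 steps in both libraries, with shares above 85% at the hexokinase, phosphofructokinase, aldolase, enolase, pyruvate kinase, lactate dehydrogenase and lactate transport steps.

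The pyruvate dehydrogenase complex moves pyruvate carbon into the mitochondrial citric acid cycle, and its kinases switch it off. Pdk2 had 37.3 TPM in replicate 1 and 36.1 in replicate 2, Pdk1, a target of the hypoxia response, had 16.0 and 24.8 TPM, and Pdk3 had 12.4 and 17.0 TPM. Pdk2 led in both libraries, but the interval of its fold over Pdk1 held 1 in replicate 2 (1.45-fold, 0.975 to 2.17), unlike in replicate 1 (2.33-fold, 2.18 to 2.49). Pdk3 was ahead in replicate 2 by counts, with 36.9% of the step against 32.7% for Pdk2. At the length of the longest coding transcript, Pdk2 would have 29.6 TPM in replicate 1 and 14.1 in replicate 2. Pdk3 would have 12.4 and 17.0 TPM at that length, so it was ahead in replicate 2 there as well. Pdk1 would have 6.85 and 5.45 TPM, below Pdk3 in both libraries. Of the deposited Pdk1 TPM, 91.9% in replicate 1 and 100% in replicate 2 lay on noncoding transcripts. Pdk4, the fasting-induced kinase, had 0 counts in both libraries.

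The subunits of the complex itself were low. Pdha1, the E1 alpha subunit, had 3.18 TPM in replicate 1 and 7.97 in replicate 2. Pdhb, the E1 beta subunit, had 671 counts and 12.7 TPM in replicate 1 and 0 counts in replicate 2, where it was at least 8.92-fold lower after scaling, with 3 counts taken for replicate 2. The subunits of this enzyme thus stood in opposite order to each other in the 2 libraries. Of 9 other genes of pyruvate entry, 5 reached a mean of 1 TPM: Mpc2, a subunit of the mitochondrial pyruvate carrier, had 154 and 161 TPM in replicates 1 and 2, its partner Mpc1 had 32.3 and 0 TPM, and Dlat, the E2 subunit, had 10.5 and 19.0 TPM.

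The pentose phosphate pathway opens with G6pdx, the X-linked glucose 6-phosphate dehydrogenase, which had 16.1 TPM in replicate 1 and 5.14 in replicate 2, there on 15 counts. Pgls, the lactonase, had 319 and 638 TPM, and Pgd, the second NADPH-yielding dehydrogenase, had 128 and 105 TPM. The entry enzyme was thus the lowest of the 3 oxidative genes in both libraries. G6pdx-201 held 87.1% of the gene in replicate 1 and 55.0% in replicate 2, and the noncoding G6pdx-202 held 12.9% and 45.0%. H6pd, the related enzyme of the endoplasmic reticulum, had 6.56 and 4.57 TPM.

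In the sugar-shuffling arm, Tkt, the transketolase, had 382 TPM in replicate 1 and 271 in replicate 2, and Taldo1, the transaldolase, had 434 and 178 TPM. Rpia, the isomerase that makes ribose 5-phosphate, was much lower, with 24.9 TPM in replicate 1 and 7.29 in replicate 2. Rpia-202, with a retained intron, held 50.3% of the gene in replicate 1 and 73.0% in replicate 2, there on 12 counts for the whole gene. The transketolase-like genes Tktl1 and Tktl2 had 0 counts in both libraries.

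Apart from the 37 genes, 20 further isozymes of the same steps were looked up, and 3 of them, Slc2a6, H6pd and Pfkfb2, reached a mean of 1 TPM. Besides those named above, Gapdhs, Eno4, Slc16a8, Ldhd and Pdha2 also had 0 counts in both libraries, which brings the genes at 0 to 12 of the 20.

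Ratios between the libraries, replicate 1 over replicate 2 after TMM scaling (a trimmed mean that offsets differences in composition), were taken for genes with a mean of at least 100 counts. Since replicate 1 is deeper, a gene can pass this minimum through replicate 1 alone, as Hk3, Pdhb, Pfkfb4 and others did, so the split between the sides is no support for a direction. Of 35 such members, 12 were at least 2-fold higher in replicate 1, where the background was 33.8% of 8194 genes. They were Hk3, Pfkm, Pfkp, Pfkfb4, Tpi1, Gapdh, Pgk1, Eno3, Pdhb, G6pdx, Rpia and Taldo1. The count of 3 members at least 2-fold lower in replicate 1, Hk1, Pfkl and Pdha1, compares with a background of 15.7%. The split of these calls was 80.0% to the side of replicate 1, where 2767 of the 4055 calls over all genes also fell. With total counts in place of TMM, 17 members were higher and 1 lower in replicate 1, a split of 94.4%, beside backgrounds of 43.5% and 7.30%. With a minimum of 50 CPM on the mean, which weights both libraries equally, 4 of 18 members were higher and 2 lower in replicate 1, while all 2576 genes leaned to replicate 2, with 15.8% higher and 26.4% lower in replicate 1 and a median log2 ratio of -0.37. In all, 15 members were at least 2-fold apart, beside a background of 49.5%. With the GC trend removed, 13 were higher and 4 lower in replicate 1, beside backgrounds of 31.3% and 15.8%. The share of members past 2-fold was thus near or below that of all genes, and 2 of the 35, Hk3 and Pdhb, were at 0 in replicate 2, beside a background of 4.54%.

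The ratios of the 3 genes lower in replicate 1 were 0.489 for Hk1 (0.476 to 0.503), 0.391 for Pfkl (0.379 to 0.403) and 0.337 for Pdha1 (0.242 to 0.480). All 3 stayed below 1 under 4 other scalings, but only Pdha1 stayed past 2-fold in each. Of the 12 higher in replicate 1, 10 stayed past 2-fold in each of the 4, and Pfkp and Eno3 did not. The remaining 20 genes lay within 2-fold, among them Aldoa at 1.11 (1.09 to 1.13), Pkm at 0.875 (0.858 to 0.892), Ldha at 1.28 (1.22 to 1.35) and Slc16a3 at 0.919 (0.885 to 0.954).

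The side of 1 on which a gene within 2-fold lies depended on the scaling for several of these, Pkm and Slc16a3 included. The median log2 ratio was 0.48 for the 35 members and 0.30 for all 8194 genes. With total counts these medians were 0.92 and 0.74, and on the TPM scale 0.38 and 0.45, so the members stood slightly above all genes with TMM or total counts and slightly below them on the TPM scale. Median GC content was 53.8% in members higher in replicate 1 and 54.0% in those within 2-fold. Across all 8194 genes tested, the log2 ratio fell with GC content (Spearman -0.29, a description across genes of the same libraries). With that trend removed, the log2 ratio of Pgls was 0.037 against -0.80 before, that of Slc16a1 -0.0048 against 0.69, and that of Pdk3 -1.33 against -0.69.

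**Figure D3:**
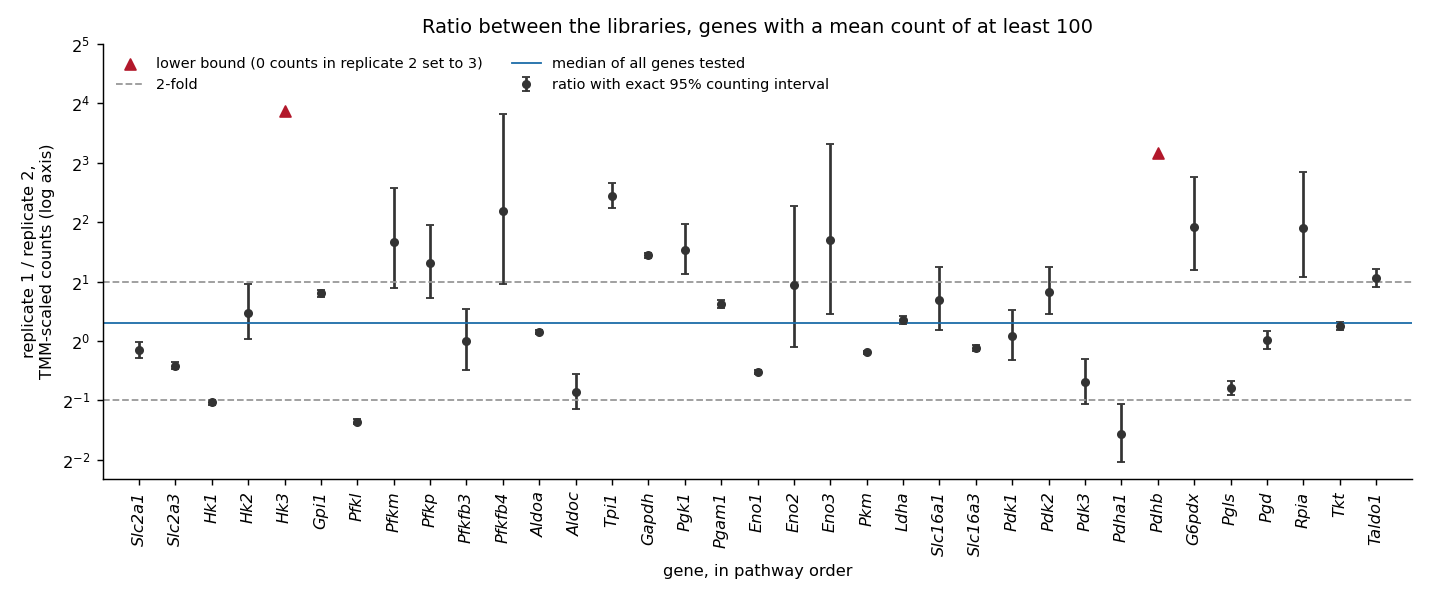
Ratio of replicate 1 to replicate 2 after TMM scaling, on a log axis, for the 35 genes with a mean of at least 100 counts, with exact 95% counting intervals, dashed lines at 2-fold, a blue line at the median of all genes tested, and triangles for lower bounds. Tpi1 stands highest among genes with counts in both libraries at 5.45, and Pdha1 lowest at 0.337.

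Among members with several annotated transcripts and a mean of at least 5 TPM, 18 of 30 had the same leading transcript in both libraries, beside a background of 66.2% of 4695 genes. In Slc2a3, the coding Slc2a3-201 held 96.4% of the TPM in replicate 1 and Slc2a3-204 held 99.3% in replicate 2. Slc2a3-204 spans 6253 bases and keeps an intron of 2534 bases. Eno1 led with Eno1-201 in replicate 1 at 65.6% and with Eno1-202 in replicate 2 at 96.0%, both coding, and Eno1-201 was at 0 TPM in replicate 2. Pgls led with Pgls-201 at 93.6% in replicate 1 and with Pgls-204 at 65.6% in replicate 2.

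The other swaps were in less abundant genes. Hk2 led with Hk2-201 in replicate 1 and Hk2-204 in replicate 2, Eno2 with Eno2-201 and Eno2-215, and Eno3 with Eno3-201 and Eno3-207. Pfkfb3 led with Pfkfb3-220 in replicate 1 and the noncoding Pfkfb3-210 in replicate 2, Pdk2 with Pdk2-201 and the noncoding Pdk2-202, and Pdk1 with the noncoding Pdk1-208 and Pdk1-204. The leading transcripts of Eno2 and Eno3 in replicate 2 rested on 4 and 2.62 counts. Genes with the same leader in both libraries and over 95% on it in each were Slc2a1-201, Pfkl-201, Pkm-201, Tkt-201, Taldo1-201, Pgd-201, Pdk3-201 and Pdha1-201. Gpi1-201 held 99.2% and 89.6%, and Aldoc-202 91.6% and 74.7%, in replicates 1 and 2. Hk3-208, Pklr-202 and Ldhb-201 held their genes' counts in replicate 1, and Pgam1, Pfkfb4, Slc16a1 and Pdhb have 1 annotated transcript each.

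Transcripts not annotated as protein coding took over 50% of the TPM in 5 of the 37 genes in replicate 1 and in 9 of the 33 with counts in replicate 2. The 5 were Pfkp, Tpi1, Gapdh, Pdk1 and Rpia, and the 9 were these with Slc2a3, Pfkfb3, Pgk1 and Pdk2. The share over all genes is not given, so these counts do not show a trait particular to the 37 genes. All of the leading noncoding transcripts share most of their bases with coding exons, between 59.5% for Slc2a3-204 and 100% for Pdk1-208 and Pdk2-202.

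**Figure D4:**
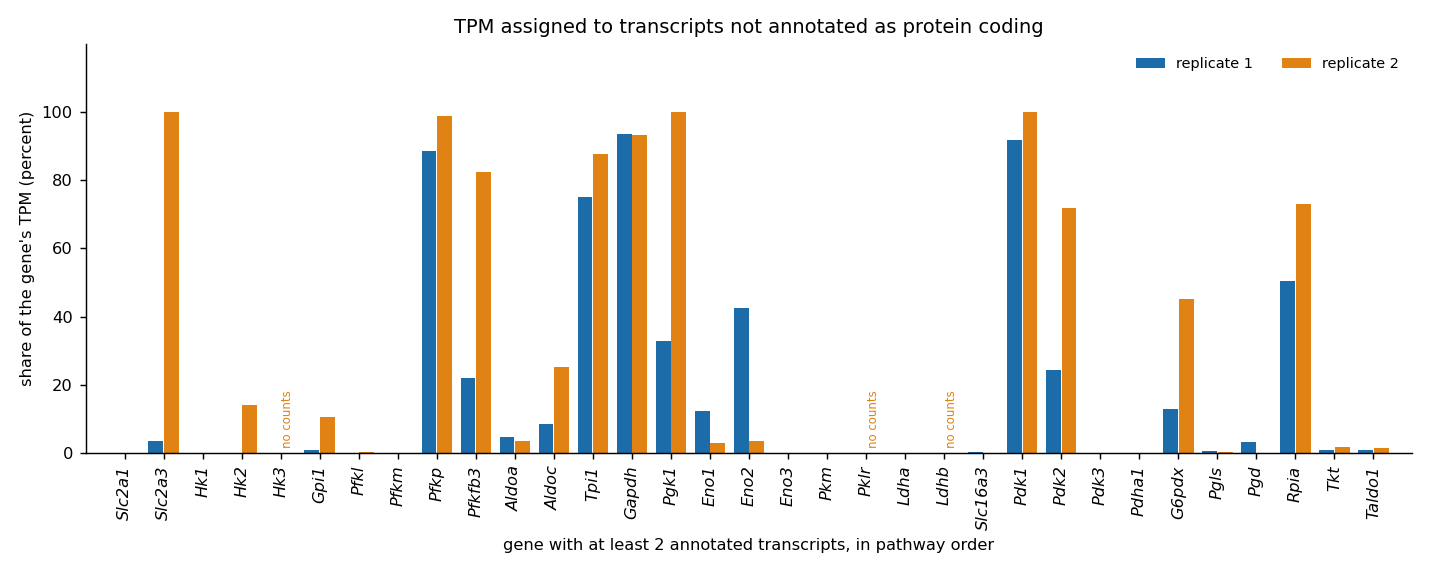
Share of each gene's TPM, in percent, placed on transcripts not annotated as protein coding, for members with at least 2 annotated transcripts, in replicate 1 (blue) and replicate 2 (orange). Gapdh, Tpi1, Pfkp, Pdk1 and Rpia stand above 50% in both libraries, and Slc2a3 and Pgk1 reach 100% in replicate 2 alone.

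Promoter letters were looked up as a feature that the choice of members did not use. The letters ACGTG or GCGTG, the core that hypoxia-inducible factors bind, occurred on either strand in the 250 bases before the start in 40 of 52 RefSeq windows (GRCm38.p6) of 36 members, or 76.9%, beside 44.0% of 21263 windows of protein coding genes and 38.6% of all 32851 windows. Overlapping matches were counted singly, so that the letters CACGTG count as a match on each strand. The members' windows were also richer in GC, with a median of 60.0% and 14 CpG pairs, against 55.6% and 10 in protein coding genes. A match is a description of the letters and not a binding site. Of genes that code for such factors, Hif1a had 2.70 and 1.34 TPM in replicates 1 and 2, and Epas1 had 0.97 and 0.42 TPM. In replicate 2 each of these rested on 4 counts. Arnt had 10.7 and 20.3 TPM in replicates 1 and 2. These RNA levels do not give the amounts of the proteins.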

How the data were processed

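Polyadenylated RNA of 2 megakaryocyte libraries was measured. For each, the authors deposited a gene and a transcript table. Per the deposited file lists, these use mm10 and GENCODE M4. Which aligner and quantifier made them is not given in the sources used here. Their columns hold, per the file headers, an expected count (an estimate of fragments, which may be fractional) and the authors' TPM, that count over effective length and scaled to a fixed total. Of the expected counts, 3.53% were fractional beyond 0.005 in replicate 1 and 1.43% in replicate 2. Deposited percent values of isoforms were not used; shares were recomputed from transcript TPM.

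The analysis used 43346 Ensembl gene rows. Another 26248 rows with numeric identifiers and 97 control rows held 3.56e-05% of counts in replicate 1 and 0 in replicate 2 and were left out. Symbols, transcript names and types came from GENCODE M21 on GRCm38 (the assembly of mm10) by identifier, for 98.0% of genes; of 77 member transcripts listed, 67 had the same length in both annotations.

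Expected counts were rounded, and TMM factors (1.16 for replicate 1, 0.859 for replicate 2) came from edgeR 4.0.16 in R 4.3.3 on genes averaging 10 or more counts; DESeq2 1.42.0 gave alternative size factors. No differential test was run. Ratios carry exact Clopper-Pearson 95% intervals, conditional on the summed count; intervals and floors of 3 counts cover counting error only, because fragments lack molecular identifiers and may be copies of 1 molecule. The GC trend was a lowess of log2 ratio on GC (fraction 0.3). Near-identical loci were sought with BLAST 2.17.0 among transcripts, and rows with no symbol were not searched. Remaining steps ran in Python 3.11.15 with numpy 2.4.6, pandas 2.3.3, scipy 1.17.1, statsmodels 0.14.6 and matplotlib 3.10.9. Ratio calling was also tried on simulated counts with known changes and counting error only. That setting is simpler than these libraries, so it is no support for the ratios given here.

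The members and the further lists were chosen with earlier results of these data known. Named were all members, the leading transcript of each in each library, and every transcript over 5% for Pkm, Ldha, Hk1, Pfkm, Aldoa, Slc16a3 and G6pdx. Of other lists except those of cell type markers, the 3 highest were named. The marker lists were given as summed TPM. In every list, the genes with 0 counts in both libraries were named. Ldhc, Hif1a, Epas1, Arnt, Marco, Sdha, Idh3g and genes near-identical to members were added after their values were seen. Of the further isozymes, 1 gene is not reported here.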

Additional observations from a re-analysis of the deposited data

How the results depend on the processing

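No paired analysis was possible because there is 1 group of 2 libraries. Members detected stayed at 35 with a minimum of 0.5 TPM and were 33 at 5 TPM and 37 by posterior mean TPM; leaving out replicate 1 or replicate 2 gave 32 and 35. With total counts, 17 members were at least 2-fold higher in replicate 1 and 1 in replicate 2 (43.5% and 7.30% of all genes), and the members' median log2 ratio was 0.92. With a minimum of 50 CPM, which weights both libraries equally, 6 of 18 members were at least 2-fold apart, 4 of them higher in replicate 1 (66.7% of calls), beside 15.8% of all genes higher and 26.4% lower there, so the lean of all genes turned to replicate 2. The members' median was 0.081, or 0.45 above that of all genes (-0.37). With genes averaging 10 or more counts the median was 0.62, or 0.071 above that of all genes, and with no minimum 0.62, lying at -0.056 from it. On the TPM scale the members' median lay at -0.070 from that of all genes, against 0.18 above it with TMM. The cause was not tested. Counts with DESeq2 size factors or the GC trend removed stayed within 1.5 times. The PDH kinase step alone lost its shared leader, with expected counts or with the length of the longest coding transcript (9 of 10 steps each). The leading transcript was the same in both libraries for 17 of 30 members with posterior mean TPM (63.9% of all genes), 20 of 30 with expected counts (68.1%), 18 of 30 at a minimum of 1 TPM (62.3%) and 13 of 21 at 20 TPM (69.4%). Levels moved by over 1 SD in 10 of 37 genes by posterior mean TPM, in 6 with TPM over protein coding genes, and in 10 at the length of the longest coding transcript. This measure passes over genes whose libraries lie far apart: at that length Gapdh averaged 4531 TPM against 12376 as deposited, and Tpi1 273 against 903. Deposited levels were at least 2 times those at that length in 4 genes in replicate 1 and in 10 in replicate 2. For these counts too the share over all genes is not given. Replicate 2, with 2275922 counts, limits the genes with few counts there.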

Other observations

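Genes that lead into and out of glycolysis were also measured. Of 15 genes of side branches, 13 reached a mean of 1 TPM. After Bsg, the highest were Phgdh, the first enzyme of serine synthesis from 3-phosphoglycerate, with 68.5 TPM in replicate 1 and 73.1 in replicate 2, and Gys1, the glycogen synthase of most tissues, with 43.5 and 35.6 TPM. Of 6 genes of gluconeogenesis, G6pc, Fbp1, Fbp2 and Pck1, the liver and kidney enzymes, had 0 counts in both libraries, while G6pc3, the widespread glucose 6-phosphatase, had 70.7 and 34.1 TPM and the mitochondrial Pck2 had 13.9 and 7.78 TPM.

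All 17 genes of the citric acid cycle reached a mean of 1 TPM. The highest were Mdh2, a malate dehydrogenase, with 308 TPM in replicate 1 and 285 in replicate 2, Sdhb, a subunit of succinate dehydrogenase, with 125 and 187 TPM, and Dlst, a subunit of the 2-oxoglutarate dehydrogenase complex, with 55.0 and 102 TPM. At least 2-fold higher in replicate 1 were 10 of the 17 and at least 2-fold higher in replicate 2 was 1, beside backgrounds of 33.8% and 15.7%, and the list's median log2 ratio was 1.10 against 0.30 for all genes. Here too a gene could pass the count minimum through replicate 1 alone, as Sdha did with 1108 counts and 3 and Idh3g with 784 and 4. Neither the split nor the median is therefore support for a direction. Of 12 genes of the hypoxia response, 11 reached a mean of 1 TPM, led by Ndrg1 with 211 and 357 TPM, Bnip3 with 125 and 67.8 TPM, and Egln2 with 72.4 and 111 TPM in replicates 1 and 2. Of the 10 with a mean of at least 100 counts, 2 were at least 2-fold higher in replicate 1 and 2 in replicate 2.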
